A study of Mus musculus with 6 samples.

Results

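The enzymes that build and crosslink collagen are 5 lysyl oxidases (Lox, Loxl1, Loxl2, Loxl3 and Loxl4), 3 lysyl hydroxylases (Plod1, Plod2 and Plod3) and the tissue transglutaminase Tgm2, 9 of the 22274 genes in the deposited table. They were picked by gene symbol as collagen crosslinking enzymes, and each symbol matched a single row. RNA-seq was carried out on cultured mouse kidney cells that the labels call primary renal fibroblasts. The 3 Prune2 siRNA libraries came from cells with a prune2 knockdown and the 3 control siRNA libraries from wild-type cells given a scrambled siRNA. Every culture, controls included, had TGF-β at 5 ng/ml for 48 h, and what TGF-β itself did cannot be read from these values. Cells without TGF-β were not analysed here. The labels do not state the strain or age of the mice or the siRNA sequences. Nor do they say whether replicates came from separate cultures or animals, so a p-value here reflects only how far these libraries differ, part of which may be technical.

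Collagen is crosslinked in steps that begin inside the cell. Lysyl hydroxylases of the endoplasmic reticulum hydroxylate lysine residues of procollagen, and Plod2 is the one known for the telopeptide lysines whose hydroxylation leads to stable, poorly reversible crosslinks. Lysyl oxidases are secreted copper enzymes that oxidise lysine and hydroxylysine side chains to aldehydes, which then react to join neighbouring collagen or elastin molecules. Tgm2 is a calcium-dependent enzyme that joins glutamine to lysine side chains, with fibronectin and collagen among its substrates. Together these enzymes are known for stiffening the matrix of the scarred kidney and for making it resist proteases.

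Total counts ran from 21126240 to 23234797 with Prune2 siRNA and from 20075265 to 23035593 with control siRNA. Prune2, the targeted gene, had 80, 73 and 104 counts in the Prune2 siRNA libraries, against 133, 157 and 150 in the control libraries. Its log2 fold change was -0.87 (SE 0.15; adjusted p = 0.000214 by edgeR's quasi-likelihood test), and the mean CPM was 3.80 ± 0.629 with Prune2 siRNA and 6.95 ± 0.775 with control siRNA (SD, n = 3 each). By FPKM the difference was smaller: the authors' deposited table has a log2 fold change of -0.48. The implied gene length of Prune2, given below, also differed between the groups. With limma it was -0.24 on log2(FPKM + 1) and -0.43 on log2(FPKM + 0.1), neither called. Prune2 averaged only 0.847 FPKM with Prune2 siRNA and 1.18 FPKM with control siRNA, so the added 1 or 0.1 itself shrinks these values. The label of the cells was set against 13 fibroblast markers. Lum, Dcn and Fap were too low to be tested. Thy1 averaged 0.500 CPM with Prune2 siRNA and 0.594 CPM with control siRNA, and S100a4 0.741 CPM with Prune2 siRNA and 0.920 CPM with control siRNA. Pdgfra averaged 4.87 CPM with Prune2 siRNA and 5.02 CPM with control siRNA. Others of the list were higher, and Acta2 and Vim were the highest. Acta2, smooth muscle actin, averaged 586 CPM with Prune2 siRNA and 715 CPM with control siRNA. Vim, vimentin, averaged 395 CPM with Prune2 siRNA and 570 CPM with control siRNA. Epithelial markers ranged widely: Krt8 averaged 2208 CPM with Prune2 siRNA and 2420 CPM with control siRNA, Epcam 431 CPM with Prune2 siRNA and 428 CPM with control siRNA, and Umod 1.58 CPM with Prune2 siRNA and 1.38 CPM with control siRNA. Summed over 13 listed markers each, tubular epithelial genes reached 5289 to 5758 CPM with Prune2 siRNA and 5735 to 5892 CPM with control siRNA, with Aqp2 at 0 throughout. Fibroblast genes reached 1295 to 1372 CPM with Prune2 siRNA and 1641 to 1721 CPM with control siRNA. Krt8, Krt18 and Cdh1 were the highest of the tubular list. CPM is a count scaled to library size by the TMM method, which makes libraries comparable. It is not scaled to gene length, so the sizes of the tubular and fibroblast sums do not compare amounts of cell types. In a bulk culture, fewer cells of a type and less RNA per cell cannot be told apart.

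The lysyl oxidases share a catalytic domain at the carboxyl end with a short histidine-rich, copper-binding segment. The coding stretches of that segment are shown because they carry the feature that makes these genes a family, and because likeness of sequence bears on whether reads could be shared. They were read from GENCODE M21 transcripts on GRCm38, 5′ to 3′ on the coding strand, with histidine codons in capitals, and each spans an exon junction.
Loxl1: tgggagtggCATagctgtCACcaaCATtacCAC
Loxl2: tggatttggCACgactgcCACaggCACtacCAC
Loxl3: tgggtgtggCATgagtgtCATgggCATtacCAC
Loxl4: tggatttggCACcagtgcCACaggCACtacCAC
The Loxl1 stretch lies at chr9:58293720-58294381 on the minus strand across exons 3 and 4. The Loxl2 stretch lies at chr14:69682316-69689037 on the plus strand across exons 10 and 11. The Loxl3 stretch lies at chr6:83049995-83050125 on the plus strand across exons 10 and 11. The Loxl4 stretch lies at chr19:42598807-42599899 on the minus strand across exons 11 and 12. The Lox stretch is not printed here; it shared 32 of the 33 bases with Loxl1, the closest pair. Loxl2 and Loxl4 shared 31 of the 33 bases, whereas Loxl1 and Loxl4 shared 21. Over whole transcripts, the longest identical run between any 2 lysyl oxidases was 11 to 32 bases, and between any 2 lysyl hydroxylases 15 to 24 bases. The labels give neither the read length nor how reads matching several genes were handled.

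With Prune2 siRNA, 5 of the 9 transcripts fell, 0 rose and 4 were not called. Loxl2, Plod2, Loxl1, Loxl3 and Tgm2 were the 5 that fell, with log2 fold changes from -0.28 to -0.70. Of all 13248 tested genes, 10.3% were called in either direction and 5.83% were called lower (edgeR's quasi-likelihood test, adjusted p under 0.05 over all tested genes). The median log2 fold change was -0.28 over the 9 members and 0.00 over all tested genes. All 9 members passed the filter on low counts. The CPM values of the groups did not overlap for 5 members, all lower with Prune2 siRNA, against 12.4% of all tested genes. The same libraries differed in other cell markers: all 18 leukocyte markers were lower, with none at 0, and their summed level was 46.5 to 50.5 CPM with Prune2 siRNA and 221 to 277 CPM with control siRNA. Of 12 tested endothelial markers 6 were lower, with sums of 92.3 to 97.9 CPM with Prune2 siRNA and 124 to 135 CPM with control siRNA, and all 14 tested interferon response genes were higher, with sums of 261 to 332 CPM with Prune2 siRNA and 111 to 153 CPM with control siRNA. Of 10 tested fibroblast markers 4 were lower and 0 higher: Vim (log2 fold change -0.53, adjusted p = 3.72e-09 by edgeR), Acta2 (-0.29, adjusted p = 7.31e-06 by edgeR), Col1a1 and Col1a2, of which the collagens are also among the substrates below. The part of these differences in the members' values was not tested.

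**Figure D1:**
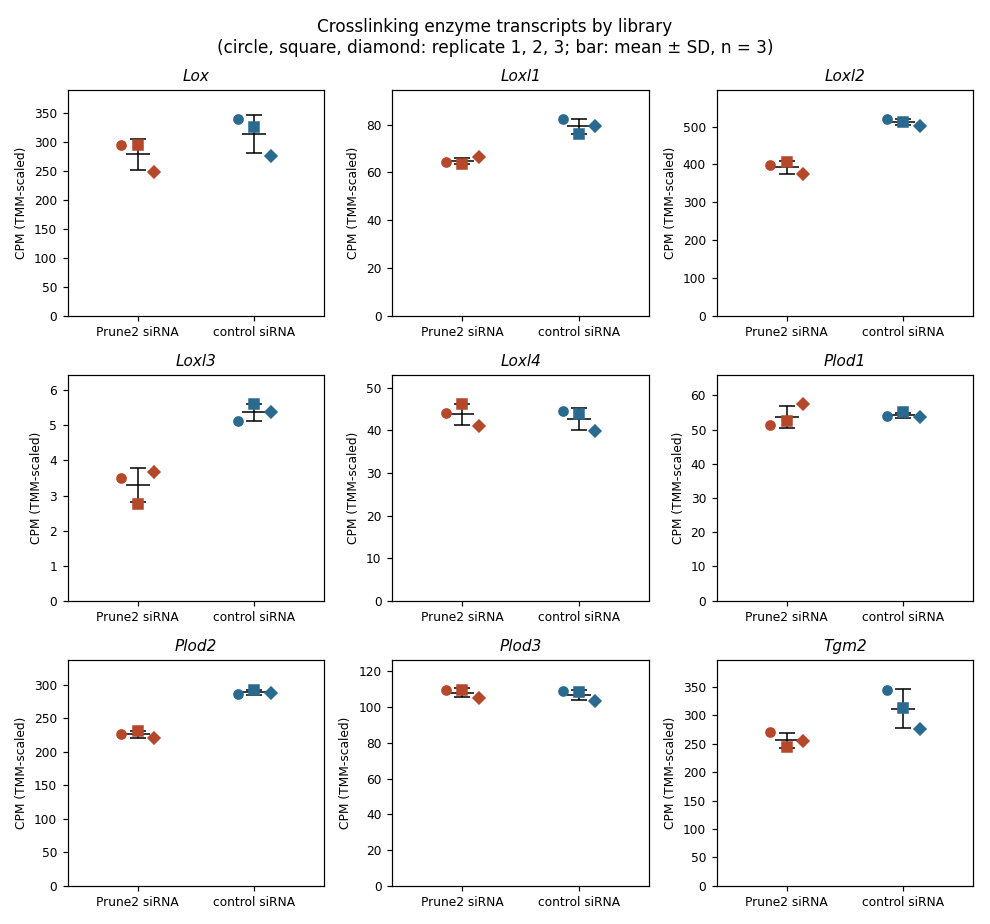
CPM of each of the 9 crosslinking enzyme transcripts (vertical axes, from 0) in the 3 Prune2 siRNA and 3 control siRNA libraries; symbols mark the replicate and black bars the mean ± SD. The groups separate for Loxl1, Loxl2, Loxl3, Plod2 and Tgm2 and overlap for Lox, Loxl4, Plod1 and Plod3.

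Among the lysyl hydroxylases, Plod2 was the only one of the 3 called. Plod2 (ENSMUSG00000032374, chromosome 9, 92542223 to 92608428 on the plus strand) had 227, 230.4 and 219.8 CPM with Prune2 siRNA, against 286, 293 and 288 CPM with control siRNA. The highest Prune2 siRNA library lay well below the lowest control library, and the spread within each group was small. Its mean was 226 ± 5.39 CPM with Prune2 siRNA and 289 ± 3.57 CPM with control siRNA (SD, n = 3 each), a log2 fold change of -0.36 (SE 0.04, adjusted p = 5.46e-08 by edgeR). It ranked 103 of 13248 genes by p-value. Exons of Plod2 share 346 bases with Gm38391 on the opposite strand, which was not among the deposited genes.

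Plod1 and Plod3 were not called. Plod1, which hydroxylates lysines of the collagen helix, ranged from 51.3 to 57.3 CPM with Prune2 siRNA and from 53.6 to 55.0 CPM with control siRNA, so the controls lay inside the range of the Prune2 siRNA libraries. The 95% interval of its log2 fold change was -0.12 to 0.10. Plod3, which also transfers glucose to galactosylhydroxylysine, ranged from 105 to 109.8 CPM with Prune2 siRNA and from 104 to 109 CPM with control siRNA. Its interval was -0.07 to 0.10, so a fall of the size seen for Plod2 lies outside both intervals. Exons of Plod3 share 529 bases with Znhit1 on the opposite strand, which had a log2 fold change of 0.00 (adjusted p = 0.997 by edgeR).

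Per length, Plod2 was the most abundant of the 3 and its part in the family was smaller with Prune2 siRNA. The deposited FPKM values of the 3 genes (fragments scaled to gene length and library size) summed to 113, 115 and 112 with Prune2 siRNA, against 129, 131 and 128 with control siRNA. The groups did not overlap, and the mean sum was lower by 12.5% (exact two-sided permutation test, p = 0.1, the smallest that 3 libraries against 3 can give). Plod2 made up 54.7% ± 0.453 of the sum with Prune2 siRNA and 60.8% ± 0.815 with control siRNA (SD, n = 3 each), while Plod3 made up 30.0% ± 0.981 with Prune2 siRNA and 26.0% ± 0.969 with control siRNA. The shares of all 3 genes separated the groups. In each case the exact permutation p was 0.1, or 0.133 adjusted over the 8 shares computed in both families. Shares of a family add up to the whole, so a lower Plod2 share raises the others, and the 3 are not separate results.

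Of the lysyl oxidases, Loxl2 had the highest level and the smallest p-value. Loxl2 (ENSMUSG00000034205, chromosome 14, 69609068 to 69695834 on the plus strand), which is known for oxidising type IV collagen of basement membranes, had 399, 407 and 374 CPM with Prune2 siRNA, against 519, 514 and 503 CPM with control siRNA. All 3 Prune2 siRNA libraries were below all controls. Its mean was 393 ± 17.4 CPM with Prune2 siRNA and 512 ± 8.29 CPM with control siRNA (SD, n = 3 each), a log2 fold change of -0.38 (SE 0.04, adjusted p = 3.35e-08 by edgeR). It ranked 97 of 13248 genes by p-value. Exons of Loxl2 share 301 bases with Gm27177 on the opposite strand, which was not among the deposited genes.

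Loxl1 fell by a smaller amount. Loxl1 (ENSMUSG00000032334, chromosome 9, 58287738 to 58313186 on the minus strand), which is known for its part in elastic fibre upkeep, had 64.4, 63.7 and 66.3 CPM with Prune2 siRNA, against 82.2, 76.1 and 79.4 CPM with control siRNA. The groups were apart by more than the range within either. The log2 fold change was -0.29 (SE 0.05, adjusted p = 5.81e-05 by edgeR).

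Loxl3 had the largest fold change of the 9 and the lowest level. Loxl3 (ENSMUSG00000000693, chromosome 6, 83034173 to 83052562 on the plus strand), an oxidase with scavenger receptor domains like those of Loxl2 and Loxl4, had 74, 63 and 86 counts with Prune2 siRNA, against 105, 112 and 124 counts with control siRNA. That is 3.49, 2.75 and 3.67 CPM with Prune2 siRNA, against 5.13, 5.60 and 5.39 CPM with control siRNA, without overlap. The log2 fold change was -0.70 (SE 0.16, adjusted p = 0.00366 by edgeR), with a 95% interval from -1.03 to -0.37. On log2(FPKM + 0.1), which uses the deposited FPKM, limma gave an adjusted p of 0.0531, and the adjusted p ran from 0.000377 to 0.0531 over 16 alternatives. Exons of Loxl3 share 535 bases with Htra2 on the opposite strand, and the labels do not say whether counting used strand. Htra2 averaged 20.6 CPM with Prune2 siRNA and 18.8 CPM with control siRNA (log2 fold change 0.13, adjusted p = 0.364 by edgeR).

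Lox, the founding member, was lower in mean but its groups overlapped. Lox (ENSMUSG00000024529, chromosome 18, 52516067 to 52529867 on the minus strand) had 295, 294 and 248 CPM with Prune2 siRNA, against 339, 325 and 276 CPM with control siRNA. Control replicate 3 lay below Prune2 siRNA replicates 1 and 2, and replicate 3 was the lowest of each group. Its log2 fold change of -0.17 (SE 0.06) was not called (adjusted p = 0.0830 by edgeR). Without control replicate 3 it was -0.26 with an adjusted p of 0.000611, and without Prune2 siRNA replicate 1 it was -0.21 with an adjusted p of 0.0338. Without Prune2 siRNA replicate 3 it was -0.09 and without control replicate 1 it was -0.11, and over 16 alternatives the adjusted p ran from 0.000236 to 0.646.

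Loxl4 was not called. Loxl4 (ENSMUSG00000025185, chromosome 19, 42593982 to 42612813 on the minus strand), whose copper-binding stretch above is nearest to that of Loxl2, ranged from 41.0 to 46.1 CPM with Prune2 siRNA and from 39.8 to 44.6 CPM with control siRNA. These ranges overlap, with the highest value in a Prune2 siRNA library and the lowest in a control library. Its log2 fold change was 0.04 (95% interval -0.09 to 0.16), an interval that leaves out a fall of the size seen for Loxl1 or Loxl2.

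**Figure D2:**
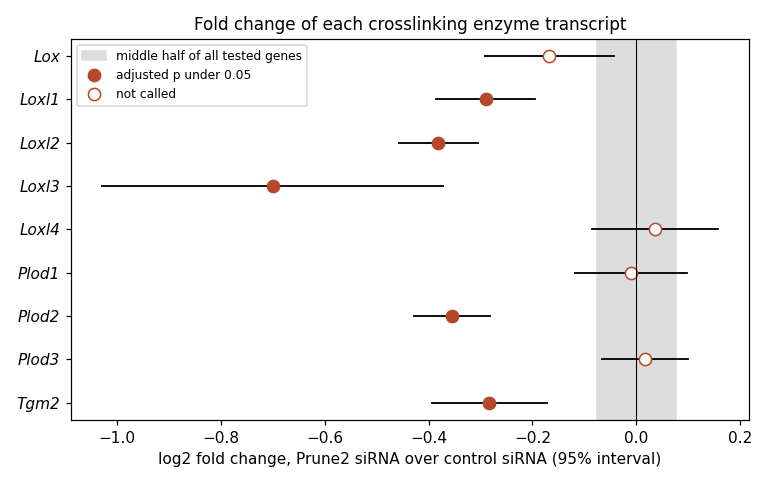
Log2 fold change of each member, Prune2 siRNA over control siRNA (horizontal axis), with 95% intervals from the edgeR fit; filled points passed the adjusted p threshold and the grey band runs from the first to the third quartile of all tested genes, -0.08 to 0.08. Loxl3 lies farthest left with the widest interval, and Loxl4, Plod1 and Plod3 lie inside the band.

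Summed over the 5 genes, lysyl oxidase transcripts were lower with Prune2 siRNA. The deposited FPKM values summed to 176, 178 and 162 with Prune2 siRNA, against 215, 209.6 and 196 with control siRNA. The groups did not overlap, and the mean sum was lower by 16.9% (exact two-sided permutation test, p = 0.1, the smallest possible). Loxl2 made up 46.3% ± 0.931 of the sum with Prune2 siRNA and 49.7% ± 1.52 with control siRNA (SD, n = 3 each). Loxl4 made up 7.16% ± 0.0335 with Prune2 siRNA and 5.94% ± 0.244 with control siRNA, and Loxl3 under 1% in every library. These 3 shares separated the groups (exact permutation p = 0.1 each, 0.133 adjusted over 8 shares), while those of Lox and Loxl1 overlapped. Here too the shares are tied to each other, since they add up to the whole.

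**Figure D3:**
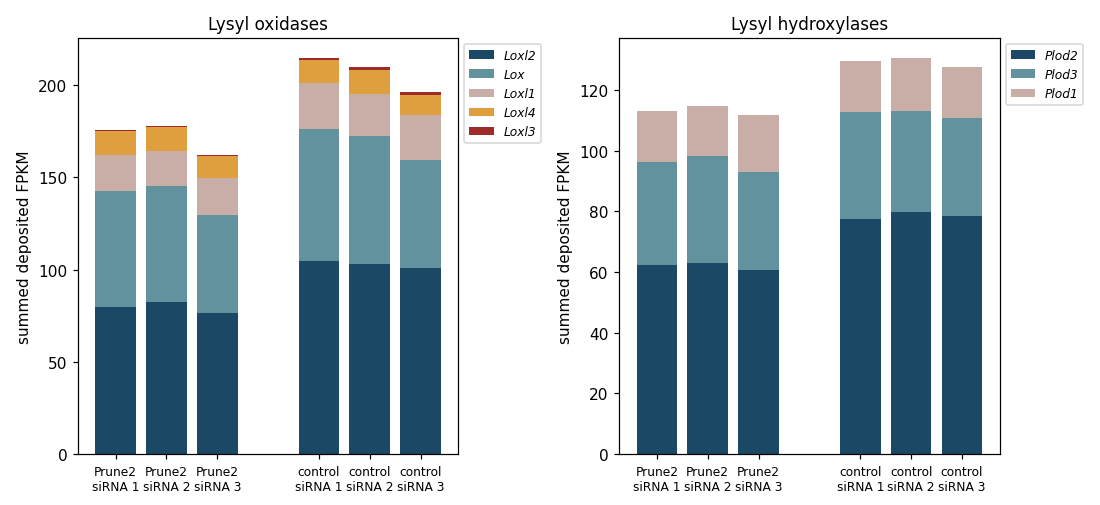
Deposited FPKM summed over the lysyl oxidases (left) and the lysyl hydroxylases (right) in each library, stacked by gene. The stacks are shorter in all 3 Prune2 siRNA libraries, and the Loxl2 and Plod2 parts shrink most while those of Loxl4, Plod1 and Plod3 hardly differ.

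Tgm2 also fell, with a wider spread among controls. Tgm2 (ENSMUSG00000037820, chromosome 2, 158116402 to 158146436 on the minus strand) had 269.8, 244 and 255 CPM with Prune2 siRNA, against 345, 313 and 277 CPM with control siRNA. The highest Prune2 siRNA library and the lowest control library were close together. Its mean was 256 ± 13.1 CPM with Prune2 siRNA and 312 ± 34.3 CPM with control siRNA (SD, n = 3 each), a log2 fold change of -0.28 (SE 0.05, adjusted p = 0.000559 by edgeR). The call depended on the test: the adjusted p was 0.0624 with DESeq2, 0.0676 with limma on log2(FPKM + 1) and 0.0625 with limma on log2(FPKM + 0.1), and it ran from 7.3e-12 to 0.0676 over 16 alternatives. Exons of Tgm2 share 370 bases with Rprd1b on the opposite strand, which averaged 33.2 CPM with Prune2 siRNA and 35.9 CPM with control siRNA (log2 fold change -0.11, adjusted p = 0.277 by edgeR). They also share 633 bases with Gm20412 on the opposite strand, which was not among the deposited genes.

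The other transglutaminases and related genes were mostly below the filter. Of 9 such genes listed, including both coagulation factor XIII chains, 2 passed the filter and 0 were called. Tgm1, the keratinocyte enzyme, averaged 7.30 ± 1.02 CPM with Prune2 siRNA and 5.81 ± 0.0982 CPM with control siRNA (SD, n = 3 each; adjusted p = 0.134 by edgeR). Without Prune2 siRNA replicate 2 the adjusted p was 0.0447, and it ran from 0.0447 to 0.757 over 16 alternatives. F13a1, which macrophages also make, averaged 0.569 CPM with Prune2 siRNA and 0.778 CPM with control siRNA (adjusted p = 0.619 by edgeR).

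The authors' deposited table gives adjusted p-values under 0.05 for 4 of the 9 members, all lower with Prune2 siRNA. Over all 22274 genes of that table, 1033 were under 0.05, of which 612 were lower and 421 higher. The 4 members are Loxl2 (4.84e-23), Plod2 (2.41e-20), Loxl1 (1.16e-05) and Loxl3 (0.0144). Tgm2 has an adjusted p of 0.0704 and Lox of 0.721 in the authors' deposited table. In the authors' deposited table the log2 fold changes, which equal ratios of mean FPKM, were -0.37 for Loxl2, -0.35 for Plod2 and -0.68 for Loxl3. Dividing counts by FPKM gives an implied gene length, which was 3659 bases for Plod2 in both groups, and for Loxl2 it averaged 4947 bases with Prune2 siRNA and 4960 bases with control siRNA. Prune2 differed from the members in this, at 4492 bases with Prune2 siRNA and 5874 bases with control siRNA.

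The order of the levels per length was the same in both groups. By mean deposited FPKM it ran Loxl2, Tgm2, Plod2, Lox, Plod3, Loxl1, Plod1, Loxl4 and Loxl3. Loxl2 stood at 79.7 ± 3.08 FPKM with Prune2 siRNA and 103 ± 1.78 FPKM with control siRNA, and Loxl3 at 0.813 ± 0.127 FPKM with Prune2 siRNA and 1.30 ± 0.0603 FPKM with control siRNA (SD, n = 3 each). Among neighbours in that order, the libraries of Plod2 and Lox overlapped with Prune2 siRNA, and those of Tgm2 and Plod2 overlapped with control siRNA. All other neighbours were apart in every library of a group.

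The genes that work beside these enzymes were read from 6 lists, of which 47 members were tested. Of these 10 were called lower (21.3%) and 1 higher, against 5.83% and 4.46% of all tested genes. The lists were chosen with earlier results of these data known, so the counts describe them and test nothing.

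Of 15 tested partners of lysine and proline modification 1 fell and 0 rose, with a median log2 fold change of -0.11. The count called lower was 1 to 4 over 16 alternatives. Fkbp10, the chaperone known to be needed for telopeptide lysine hydroxylation by Plod2, was the member that fell, to 42.1 ± 1.47 CPM with Prune2 siRNA, against 51.3 ± 3.08 CPM with control siRNA (SD, n = 3 each; log2 fold change -0.28, SE 0.06, adjusted p = 0.000919 by edgeR). P4hb, a subunit of prolyl hydroxylase and the list member of highest CPM, was not called, at -0.11 (adjusted p = 0.0516 by edgeR). It was called in 9 of 16 alternatives, among them without Prune2 siRNA replicate 1 (0.0181) and without control replicate 3 (0.0239), over a range of 0.0181 to 0.228. The hydroxylysine galactosyltransferase Colgalt1 and the collagen chaperone Serpinh1 were not called, with log2 fold changes of 0.07 and 0.01.

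Of the 7 tested processing genes 2 fell and 1 rose. Bmp1, the protease that cleaves procollagen and activates the lysyl oxidase proenzyme, had 494, 497 and 512 CPM with Prune2 siRNA, against 591, 574 and 589 CPM with control siRNA. The groups were apart (log2 fold change -0.22, SE 0.03, adjusted p = 3.87e-05 by edgeR). The procollagen proteinase enhancers went opposite ways: Pcolce2 fell by 0.44 on the log2 scale (adjusted p = 0.000704 by edgeR) and Pcolce rose by 0.46 (adjusted p = 0.0278 by edgeR). The call of Pcolce was lost without Prune2 siRNA replicate 1 (adjusted p = 0.184) or 3 (0.0858) and without control replicate 2 (0.152) or 3 (0.0918), over a range of 0.00261 to 0.184 in 16 alternatives.

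Among 7 tested copper supply genes 0 were called in either direction, and 0 were called lower in all 16 alternatives. Slc31a1, the copper importer, averaged 109 ± 3.97 CPM with Prune2 siRNA and 112 ± 4.24 CPM with control siRNA (SD, n = 3 each). Atp7a, the pump that loads copper into secreted enzymes, had a log2 fold change of -0.03 (SE 0.05, adjusted p = 0.819 by edgeR).

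Of 6 tested scaffold genes, Fn1 and Postn fell and 0 rose, and the count called lower was 1 to 3 over 16 alternatives. Fn1, fibronectin, on which lysyl oxidase proenzyme assembles, had 18493, 20618 and 19175 CPM with Prune2 siRNA, against 26494, 26466 and 25926 CPM with control siRNA (log2 fold change -0.44, SE 0.04, adjusted p = 2.1e-08 by edgeR). Postn, periostin, had a log2 fold change of -0.33 (adjusted p = 0.0166 by edgeR). Its call was lost in 4 of 16 alternatives, over which the adjusted p ran from 0.00616 to 0.114. These were DESeq2 (0.0709) and edgeR without Prune2 siRNA replicate 1 (0.0683) or 3 (0.0663) or without control replicate 1 (0.114). Of 10 substrate genes 5 fell and 0 rose, with a median log2 fold change of -0.18. Col4a1, the type IV collagen chain, fell to 1346 ± 21.2 CPM with Prune2 siRNA, against 1626 ± 63.9 CPM with control siRNA (SD, n = 3 each; adjusted p = 5.22e-06 by edgeR), and Col5a1 fell by 0.28 on the log2 scale (adjusted p = 1.1e-05 by edgeR). Elastin, Col3a1, Col5a2, Col6a1 and Fbn1 were not called.

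**Figure D4:**
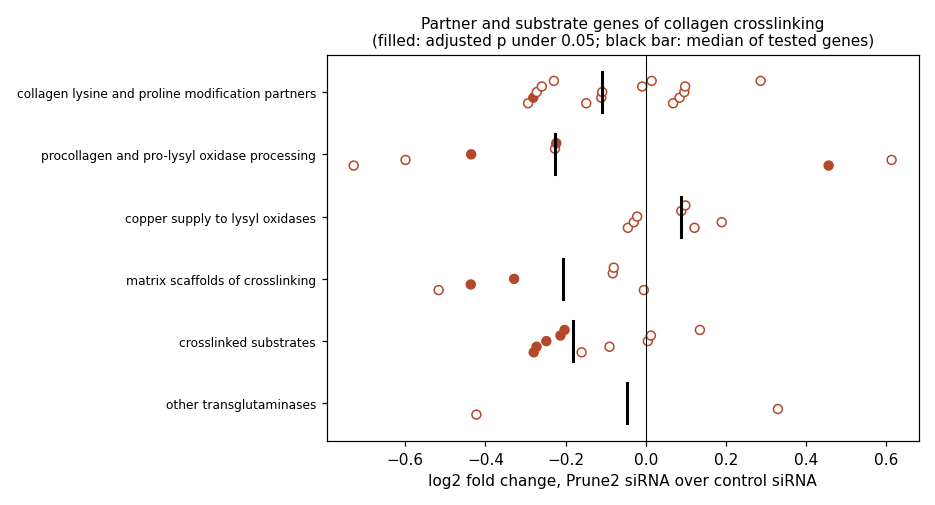
Log2 fold change, Prune2 siRNA over control siRNA (horizontal axis), of each tested gene in 6 lists of partner and substrate genes; filled points passed the adjusted p threshold and black bars are list medians. Filled points lie left of 0 except Pcolce, and the copper supply row holds none.

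Plod2 and Lox are known as hypoxia-inducible genes. Of 10 others tested, 1 rose and 0 fell, with a median log2 fold change of 0.04. Of all tested genes, 4.46% were called higher and 5.83% lower. Ndrg1 was the gene that rose, by 0.14 on the log2 scale (adjusted p = 0.0137 by edgeR). Its call was lost in 4 of 16 alternatives, over which the adjusted p ran from 0.00862 to 0.0864. These were limma on log2(FPKM + 0.1) and edgeR without Prune2 siRNA replicate 3 (0.0807) or without control replicate 1 (0.0864) or 3 (0.0673).

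Across the 6 libraries the members fell into different patterns. The Pearson correlation of log2 CPM was 0.99 between Loxl2 and Plod2 and 0.93 between Loxl1 and Loxl2, values that hold the difference between the groups. Loxl4 and Plod3 had 0.98 with each other and -0.06 and -0.09 with Loxl2, and both were lowest in replicate 3 of each group. Lox lay between these patterns, at 0.64 with Loxl4, 0.65 with Plod3 and 0.70 with Loxl2. Over the 6 libraries, and among tested genes with at least 10 CPM, the genes most like Loxl2, Plod2 and Loxl1 were Ulbp1 (r = 0.999), Plekho1 (r = 0.998) and Ust (r = 0.997). For Loxl3, Tgm2 and Lox they were Gja1 (r = 0.991), Plcd1 (r = 0.995) and Arf3 (r = 0.990). For Loxl4, Plod1 and Plod3 they were Anapc4 (r = 0.987), Eif5a2 (r = 0.967) and Hmox1 (r = 0.988). These are descriptions over 6 points, picked from at least 9062 candidates measured in the same libraries.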

How the data were processed

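The authors deposited 1 table with a read count and an FPKM value per gene and library, per the file headers, and the authors' log2 fold change, p-value and adjusted p-value. The submitters' processing notes name the builds GRCm38 and mm10. Aligner, counting tool, use of strand and the authors' test: not given in the sources used here. Genes were named by ID from GENCODE M21, which matched 22219 of 22274. Deposited counts were tested with edgeR 4.0.16 (R 4.3.3; TMM, filterByExpr, glmQLFit, glmQLFTest), with Benjamini-Hochberg adjustment over 13248 genes. The SE is the size of the log2 fold change divided by the root of F. Alternatives used DESeq2 1.42.0, limma 3.58.1 (voom, and log2(FPKM + 1) or log2(FPKM + 0.1)), other scalings and filters, a replicate block and each library left out. Replicates differed by more than sampling noise (chi-square per degree of freedom 2.57 to 3.92), so none was counted as a copy. Named genes are Prune2, the members, up to 2 called genes per direction and the gene of highest CPM of each list, and the most similar gene per member; Colgalt1, Serpinh1, Atp7a, F13a1, uncalled substrates, opposite-strand neighbours and the other cell markers were named after their values were seen. Of 11 tested tubular markers 3 fell and 3 rose. Members and lists were chosen with earlier results of these data known.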

Additional observations from a re-analysis of the deposited data

How the results depend on the processing

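Loxl1, Loxl2 and Plod2 kept their call and direction in all 16 alternatives. Loxl3 lost its call in 1, Tgm2 in 3, and Lox gained one in 4, among them no filter on low counts. The lowest adjusted p given above for Lox, Loxl3, Tgm2, Pcolce, Postn and Ndrg1 came from that unfiltered fit. There fold changes hardly moved, but adjusted p-values of called genes could fall far. Vim stayed at -0.53 and went from 3.72e-09 to 8.69e-45 by edgeR, so these low ends are no stronger evidence. The count of members called was 5 as reported, 3 with limma on log2(FPKM + 0.1), and 5 to 6 with a library left out. Over all genes, 1364 were called, 772 with limma on log2(FPKM + 1), 777 with limma on log2(FPKM + 0.1), and 997 to 1249 with a library left out; the cause was not tested. Prune2 lost its call in both FPKM fits, at -0.24 and -0.43 (adjusted p = 0.126 and 0.169 by limma). At its low FPKM the added 1 or 0.1 itself shrinks these values. Partner and substrate genes called lower numbered 9 to 13 over 16 alternatives, and tubular genes called lower 0 to 3. The alternatives for these lists were chosen after seeing the data. Signs turned only for members that were never called: Plod1 was at 0.0197 and 0.0206 in the FPKM fits with 1 and 0.1 added (as reported -0.01), and with a library left out Plod1 ran from -0.0614 to 0.0191, Loxl4 from -0.0168 to 0.0800 and Plod3 from -0.00861 to 0.0352. The summed log2 ratio of lysyl oxidases ran from -0.30 to -0.23 and of hydroxylases from -0.21 to -0.18, exon-union lengths included. Over all tested genes, same-numbered replicates did not deviate together (correlations 0.03, -0.04 and -0.02), and the labels mark no pairs. A correlation over so many genes can miss an effect shared by some of them, so it does not exclude pairing. Replicate 3 was the lowest of each group for Lox, Loxl2, Loxl4 and Plod3, and the lowest replicate also matched for Loxl1. For the other members it differed between the groups. With the replicate number as a block, 1490 genes and 6 members were called, Lox among them (adjusted p = 0.000773 by edgeR), and only replicate 1 correlated best with its own number. Depth limits Loxl3 most, at 63 to 124 counts a library.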
